A study of Mus musculus with 2 samples.

Results

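Motor neurons of the brainstem and the acetylcholine machinery they use were followed through 10 genes in whole hindbrain of mouse embryos. The genes were taken by symbol from a fixed list, and all 10 had a match among the 43346 genes with an Ensembl identifier and among the 21474 of these that GENCODE M21 calls protein-coding. They are Chat, Slc18a3, Slc5a7 and Ache, which make, load, salvage and break down the transmitter, and the transcription factor genes Isl1, Isl2, Lhx3, Lhx4, Tbx20 and Mnx1. There was a single group, with no other condition to set it against. The tissue was hindbrain of strain B6NCrl at embryonic day 16.5, with male and female embryos pooled. The 2 biological replicates are labelled as different biosamples under the same donor identifier. Replicate 2 came from 37 embryos, and the pool size of replicate 1 is not stated in the labels. The SDs below therefore measure the spread between these 2 libraries, whatever its source. Extracts labelled total RNA, of which molecules over 200 bases were used, entered each library at 10 ng with spike-ins.

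Acetylcholine is made in the nerve terminal by choline acetyltransferase, packed into vesicles by a vesicular transporter, and cleaved in the synaptic cleft by acetylcholinesterase, after which choline is taken up again. In the hindbrain, cranial motor neurons use it on muscles of the eyes, face, jaw, throat and tongue, and on parasympathetic ganglia. Isl1 is made in nearly all newborn motor neurons, whereas Mnx1, Lhx3 and Lhx4 are known from somatic motor neurons, and Tbx20 from branchiomotor and visceral motor neurons.

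The libraries held 42467811 and 42017008 expected counts in replicates 1 and 2, with 2.18% and 1.59% in spike-ins. Levels are in TPM, a relative abundance of transcripts that corrects for their length. Each TPM has deposited lower and upper bounds, which cover quantification error within 1 library and whose confidence level the file headers do not state. With 2 libraries of 1 group, the smallest p that an exact permutation test can give is 0.5, and none is printed. All levels are bulk values, in which fewer cells of a type and less RNA per cell cannot be told apart.

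Slc18a3 lies inside Chat. In GENCODE M21 on GRCm38, Chat occupies chr14:32408203-32465989 on the minus strand, and its transcript Chat-201 has 16 exons over 57755 bases. Slc18a3 is a single exon of 2413 bases at chr14:32462438-32464850, on the same strand, wholly within intron 1 of Chat-201 (4893 bases, chr14:32460914-32465806). It begins 1107 bases after the start of Chat-201. This nested arrangement, called the cholinergic gene locus, is conserved among animals.

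**Figure D1:**
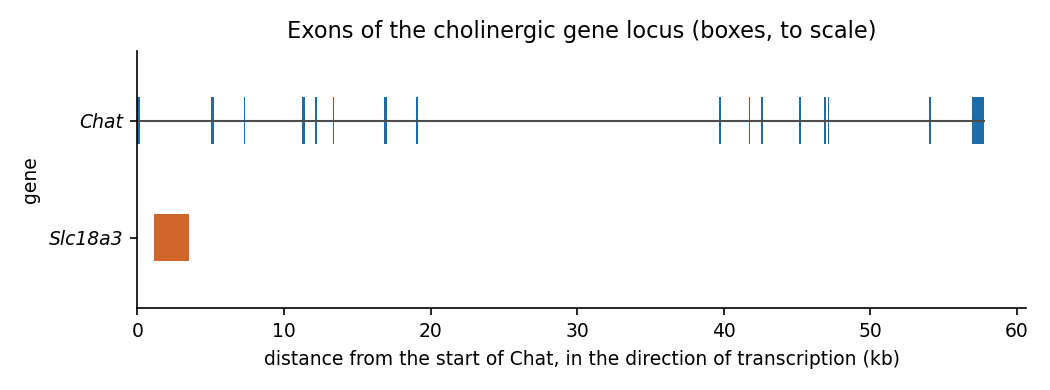
Exons of Chat (16 boxes, upper row) and of Slc18a3 (1 box, lower row), drawn to scale against distance in kilobases from the start of Chat-201 in the direction of transcription. The single Slc18a3 exon starts 1107 bases along and sits between exons 1 and 2 of Chat.

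The start regions of these 2 genes are shown because they are neighbours whose levels differ, and those of Lhx3 because it has 2 start sites, whose transcripts are described below. Each runs from 250 bases before the RefSeq start site to 30 bases after it, on the minus strand of GRCm38.p6. Capitals mark CCAAT boxes in Chat and, in the distal window of Lhx3, a match to the RE1 element known to be bound by the repressor REST. The windows are chr14:32464821-32465100 for Slc18a3, chr14:32465880-32466159 for Chat, chr2:26208220-26208499 for the distal start of Lhx3 and chr2:26206546-26206825 for its proximal start.
Slc18a3: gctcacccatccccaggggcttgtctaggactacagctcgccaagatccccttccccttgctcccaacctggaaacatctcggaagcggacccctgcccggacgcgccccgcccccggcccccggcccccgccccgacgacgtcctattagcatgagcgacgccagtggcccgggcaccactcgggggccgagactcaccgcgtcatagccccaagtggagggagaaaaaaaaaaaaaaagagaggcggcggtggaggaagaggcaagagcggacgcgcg
Chat: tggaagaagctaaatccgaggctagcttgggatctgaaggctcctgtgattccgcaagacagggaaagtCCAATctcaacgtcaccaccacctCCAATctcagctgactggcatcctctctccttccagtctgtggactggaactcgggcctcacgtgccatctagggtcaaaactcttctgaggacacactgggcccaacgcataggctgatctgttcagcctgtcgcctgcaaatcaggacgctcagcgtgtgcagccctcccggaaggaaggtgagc
Lhx3 distal: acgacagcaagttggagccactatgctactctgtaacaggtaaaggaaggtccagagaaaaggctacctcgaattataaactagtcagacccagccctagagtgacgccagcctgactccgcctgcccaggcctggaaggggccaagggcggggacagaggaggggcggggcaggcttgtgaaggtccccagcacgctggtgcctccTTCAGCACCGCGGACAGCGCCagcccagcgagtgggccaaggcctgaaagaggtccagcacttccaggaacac
Lhx3 proximal: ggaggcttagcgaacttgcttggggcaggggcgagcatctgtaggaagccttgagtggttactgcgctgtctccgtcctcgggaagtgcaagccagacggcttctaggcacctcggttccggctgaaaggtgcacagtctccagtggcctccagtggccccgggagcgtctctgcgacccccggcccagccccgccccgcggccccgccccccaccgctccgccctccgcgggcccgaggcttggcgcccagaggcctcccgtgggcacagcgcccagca

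All 10 genes matched the RefSeq start-site table, with 11 windows of 300 bases among 32851. The RE1 match was searched on both strands as TTCAGCACC and GACAGCGCC with 3 bases between them. Of the 32851 windows only that of Lhx3 held it (0.00304%), 43 to 23 bases before the distal start. The left part alone was in 122 windows (0.371%) and the right part alone in 107 (0.326%). A cAMP response element, TGACGTCA, was in 1.79% of windows and among the 10 genes in that of Isl2, 11 to 4 bases before the start. CCAAT on either strand was in 37.4% of windows, and in those of Chat, Isl1, Isl2 and Mnx1. These are matches of letters and were not tested as binding sites.

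At a limit of 1 TPM in both replicates, 8 of the 10 genes were detected, beside 63.5% of all protein-coding genes. Tbx20 was below the limit in replicate 2 and Mnx1 in both. The genes that define cholinergic neurons (Chat, Slc18a3, Slc5a7) and Isl1 were thus present in both pools, whereas Mnx1 was near 0. The median level of the 10 genes was 2.76 TPM, lower than the 5.82 TPM of all protein-coding genes.

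Ache was the most abundant of the 10. Acetylcholinesterase, its product (chr5:137287519-137294466, plus strand), is also made by neurons that release other transmitters, by muscle and by red blood cells. Its level was 72.81 TPM in replicate 1 and 85.76 TPM in replicate 2, a mean of 79.3 ± 9.16 TPM (SD, n = 2), above 89.5% of protein-coding genes. The bounds, 69.7 to 74.8 and 82.4 to 87.9 TPM, did not overlap, and replicate 2 was the higher.

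Slc18a3 encodes the vesicular acetylcholine transporter, which loads the transmitter into vesicles. It reached 22.18 TPM in replicate 1 and 18.41 TPM in replicate 2 (20.3 ± 2.67 TPM, SD, n = 2). Here replicate 1 was the higher, and the bounds of 20.5 to 22.8 and 17.0 to 19.1 TPM did not overlap. Slc5a7, at chr17:54273590-54299034 on the minus strand, encodes the high-affinity choline transporter of cholinergic terminals. It stood at 8.0 and 7.38 TPM in replicates 1 and 2 (7.69 ± 0.438 TPM, SD, n = 2), with overlapping bounds; as a ratio these were the closest values of the 10 genes by TPM.

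Chat encodes choline acetyltransferase, the enzyme that makes acetylcholine, and was the lowest of the 4 turnover genes. Its level was 2.42 TPM in replicate 1 and 1.78 TPM in replicate 2 (2.10 ± 0.453 TPM, SD, n = 2), from 165 and 124 counts. The bounds, 2.02 to 2.75 and 1.45 to 2.07 TPM, overlapped narrowly.

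The genes of the pathway therefore lay at unequal levels. Slc18a3 exceeded Chat, its host gene, by 9.17-fold in replicate 1 and 10.3-fold in replicate 2, a log2 ratio of 3.28 ± 0.12 (SD, n = 2). Slc5a7 exceeded Chat 3.31-fold and 4.15-fold (log2 ratio 1.89 ± 0.23, SD, n = 2). Slc18a3 in turn exceeded Slc5a7 by 2.77-fold and 2.49-fold. Synthesis thus ranked below vesicular loading and choline uptake in RNA level, with breakdown above all 3. Ache exceeded Chat by 30.1-fold and 48.2-fold (log2 ratio 5.25 ± 0.48, SD, n = 2). It also exceeded Bche, which encodes the related butyrylcholinesterase and was at 2.03 and 1.62 TPM, by 35.9-fold and 52.9-fold. In each of these 5 pairs the bounds of both genes were apart in both libraries.

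Some limits bear on the gap between Chat and Slc18a3. Because Slc18a3 lies in an intron of Chat on the same strand, unspliced Chat RNA across that exon and the message of Slc18a3 cannot be told apart in these tables. The files list 1 transcript of Chat, against 8 in GENCODE M21. On the opposite strand Gm2990, an antisense gene overlapping 948 bases of Chat, had 93 and 57 counts, and the sources used here do not say whether counting used strand.

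Isl1, a LIM-homeodomain factor made in newborn motor neurons and also in sensory ganglia, was the most abundant of the 6 factor genes (chr13:116298281-116309689, minus strand). It was at 24.62 TPM in replicate 1 and 12.26 TPM in replicate 2 (18.4 ± 8.74 TPM, SD, n = 2). Replicate 1 was clearly higher, as the bounds of 21.8 to 27.3 and 10.9 to 14.6 TPM show. Its paralogue Isl2, at chr9:55538672-55546180 on the plus strand and also made in motor neurons, was at 3.04 and 1.46 TPM (2.25 ± 1.12 TPM, SD, n = 2), with bounds of 2.64 to 4.19 and 1.38 to 2.67 TPM that just overlapped. Isl1 exceeded Isl2 by 8.10-fold in replicate 1 and 8.40-fold in replicate 2, so this ratio moved far less between the pools than either gene (log2 ratio 3.04 ± 0.037, SD, n = 2).

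Lhx3 and Lhx4 encode paired LIM-homeodomain factors of somatic motor neurons; Lhx3 is also known from V2a interneurons, and both from the pituitary. Lhx3 (chr2:26200212-26208289, minus strand) was at 3.74 and 2.79 TPM in replicates 1 and 2 (3.27 ± 0.672 TPM, SD, n = 2), with bounds of 3.25 to 4.46 and 2.37 to 3.45 TPM. Lhx4 (chr1:155698031-155751684, minus strand) was at 1.93 and 1.32 TPM (1.63 ± 0.431 TPM, SD, n = 2), with bounds of 1.58 to 2.41 and 0.987 to 1.85 TPM. Lhx3 was the higher paralogue, 1.94-fold in replicate 1 and 2.11-fold in replicate 2 (log2 ratio of Lhx4 over Lhx3 -1.02 ± 0.089, SD, n = 2). Counted over protein-coding transcripts alone the log2 ratio was -0.65 ± 0.23 (SD, n = 2), since retained-intron transcripts took part of Lhx3.

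Tbx20, a T-box factor of branchiomotor and visceral motor neurons and of the heart (chr9:24718138-24774303, minus strand), was at 1.34 TPM in replicate 1 and 0.92 TPM in replicate 2 (1.13 ± 0.297 TPM, SD, n = 2). Its bounds of 1.17 to 1.55 and 0.784 to 1.11 TPM did not overlap. Mnx1, also called Hb9, marks somatic motor neurons of the spinal cord and caudal brainstem (chr5:29473034-29478470, minus strand). It was the lowest, at 0.21 TPM from 10 counts in replicate 1 and 0.02 TPM from 1 count in replicate 2 (0.115 ± 0.134 TPM, SD, n = 2). At this depth its level cannot be placed closer than bounds of 0.111 to 0.368 and 0.00516 to 0.120 TPM.

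**Figure D2:**
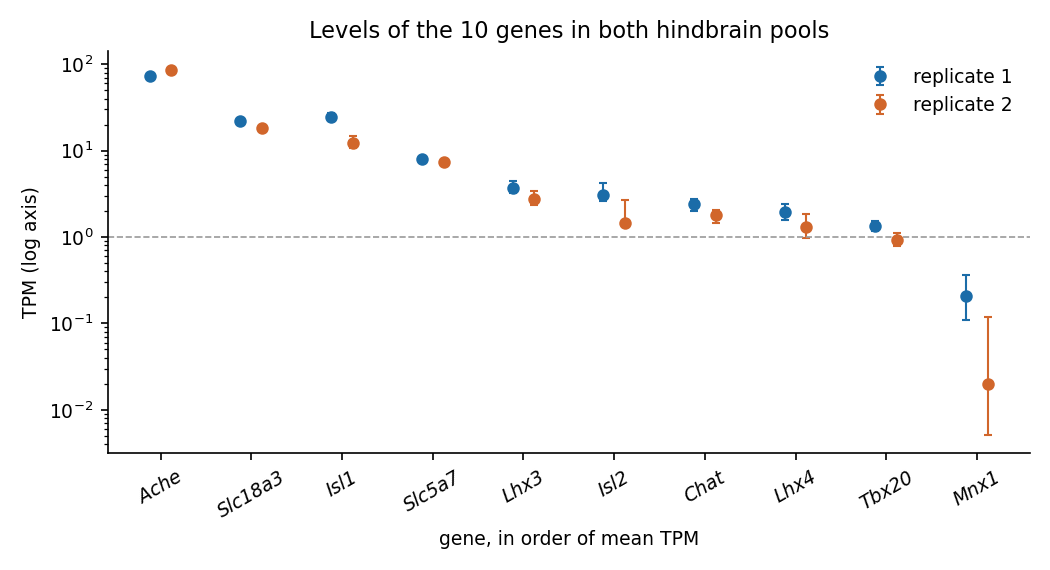
TPM of each of the 10 genes (log axis) in replicate 1 (blue) and replicate 2 (orange), with bars for the deposited bounds and a dashed line at 1 TPM. Levels run from 79.3 TPM for Ache to 0.115 TPM for Mnx1, and Ache alone is higher in replicate 2 by TPM; with counts scaled to spike-ins, Slc18a3, Slc5a7, Chat and Lhx3 are higher there too.

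In the order of mean TPM, from Ache through Slc18a3, Isl1, Slc5a7, Lhx3, Isl2, Chat, Lhx4 and Tbx20 to Mnx1, 4 of the 9 neighbouring pairs had bounds apart in both libraries. These were Ache over Slc18a3, Isl1 over Slc5a7, Slc5a7 over Lhx3, and Tbx20 over Mnx1. Slc18a3 and Isl1 changed places between the replicates. Lhx3 and Isl2, Isl2 and Chat, and Chat and Lhx4 overlapped in both libraries, and Lhx4 was apart from Tbx20 only in replicate 1.

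The replicates were then compared with each other on counts scaled by TMM, over the 16037 genes that averaged at least 1 TPM. Of the 9 genes that passed this filter, all but Mnx1, none was over 2-fold apart, where 4.5% of all genes and 1.51% of the 13843 protein-coding genes were. By TMM 8 of the 9 were higher in replicate 1, beside 53.1% of protein-coding genes. Scaling to spike-ins moved protein-coding genes by a median of 0.45 on the log2 scale toward replicate 2. Under it 4 of the 9 were higher in replicate 1, and the share of all protein-coding genes was not computed. The median log2 ratio of replicate 2 over replicate 1 was -0.40 by TMM, beside -0.015 for protein-coding genes. By spike-ins it was 0.052, beside 0.43 for protein-coding genes. Bounds failed to overlap for Ache, Slc18a3, Isl1 and Tbx20, 4 of the 9, beside 31.4% of protein-coding genes with the same mean.

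Isl1 and Isl2 were the most unequal of the 9 by TMM, whereas Ache was by spike-ins. The scaled count of Isl1 was 1.66 times higher in replicate 1 (1010 and 603 counts, 95% counting interval 1.5 to 1.84), and that of Isl2 1.76 times (117 and 66 counts, 1.29 to 2.41). Both were higher in replicate 1 under spike-in scaling too (log2 ratios of -0.28 and -0.36). Their TMM log2 ratios, -0.73 and -0.81, lay below the range of -0.65 to 0.45 that held the central 95% of protein-coding genes. This held for counts over all transcripts. Over protein-coding transcripts alone the TMM log2 ratios were -0.61 for Isl1 and -0.32 for Isl2. Both lie inside that range, but the range is of counts over all transcripts, and none was computed for coding counts. By coding counts Isl2 was nearer to 0 than Lhx4 (-0.49), Tbx20 (-0.47) and Chat (-0.37). Over all transcripts, Lhx4 followed at 1.43 times (1.15 to 1.77) and Tbx20 at 1.41 times (1.14 to 1.74). Chat was 1.32 times higher (1.04 to 1.68) and Lhx3 1.29 times (1.03 to 1.61), each inside that central range and each lower in replicate 1 under spike-in scaling.

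The transporter genes lay nearer to 1 by TMM. Slc18a3 was 1.16 times higher in replicate 1 (1.07 to 1.26) and Slc5a7 1.05 times (0.957 to 1.14), and both turned under spike-in scaling, where Slc5a7 had a log2 ratio of 0.38. Ache was the exception in direction, 1.22 times higher in replicate 2 (1.17 to 1.28) by TMM, and had a log2 ratio of 0.74 toward that replicate by spike-ins. The intervals cover counting error only. Mnx1, with 10 counts against 1, had a ratio of 9.90 (1.41 to 430), which places no useful limit on its size.

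**Figure D3:**
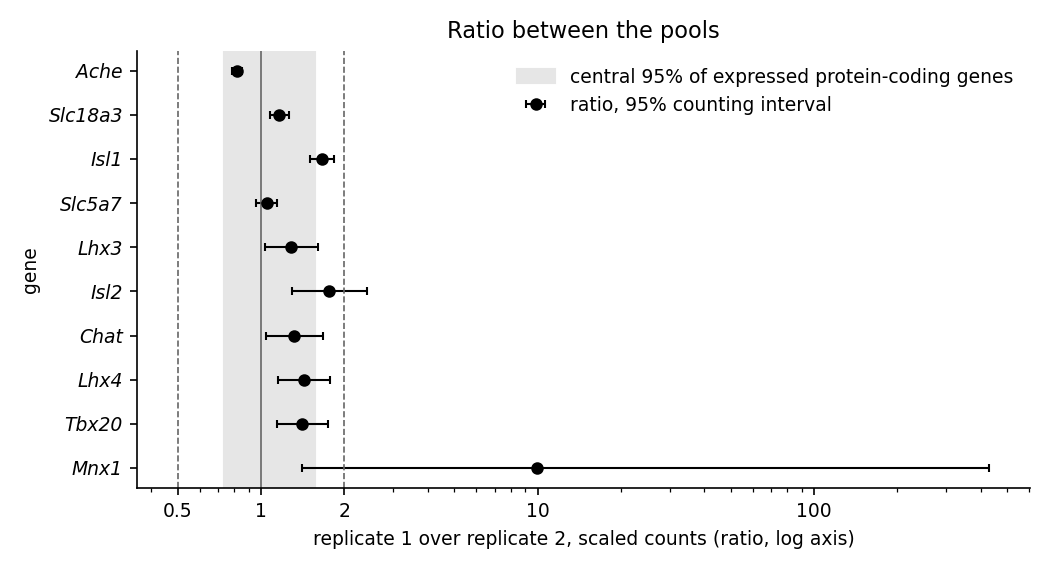
Ratio of TMM-scaled counts, replicate 1 over replicate 2 (log axis), for the 10 genes, with 95% counting intervals, the band that holds the central 95% of expressed protein-coding genes, and dashed lines at 2-fold. Ache lies left of 1, Isl1 and Isl2 lie right of the band, and Mnx1 spans 1.41 to 430. Counts are over all transcripts. Over protein-coding transcripts alone the log2 ratios of replicate 2 over replicate 1 are -0.61 for Isl1 and -0.32 for Isl2. Both would lie inside the band, which is of counts over all transcripts and was not computed for coding counts. Under spike-in scaling Slc18a3, Slc5a7, Chat and Lhx3 cross to the left of 1.

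Transcript shares lay further apart between the pools for Isl1, Isl2 and Lhx3 than for Ache and Lhx4. Bounds were deposited for the TPM of a transcript, not for its share. For Isl1, the main coding transcript Isl1-201 took 52.3% of the gene's TPM in replicate 1 and 65.8% in replicate 2. Isl1-202, whose coding part is 69 bases (23 residues) shorter, took 17.6% and 21.2%. The retained-intron transcript Isl1-203, of 676 bases, took 26.2% and 11.9%, or 6.46 and 1.45 TPM with bounds of 3.74 to 9.25 and 0.0116 to 3.17 TPM that did not overlap. By deposited TPM the whole gene was 2.01 times higher in replicate 1, and over coding transcripts alone 1.61 times (17.19 and 10.67 TPM). The deposited length of Isl1, an average over its transcripts, was 1734 bases in replicate 1 and 2011 bases in replicate 2.

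Isl2 went the same way. Isl2-201, the main coding transcript, took 60.4% in replicate 1 and 100% in replicate 2, and Isl2-202, annotated as subject to nonsense-mediated decay, took 29.0% and 0%. The bounds of Isl2-202, at most 1.53 and 0.801 TPM, overlapped between the libraries. By deposited TPM Isl2 was 2.08 times higher in replicate 1, and 1.48 times over coding transcripts.

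Lhx3 has a proximal and a distal start site, shown in the sequences above, whose transcripts differ in exon 1 and by 6 coding bases (2 residues). Lhx3-201, from the proximal start, took 24.3% of the gene in replicate 1 and 54.4% in replicate 2. Lhx3-202, from the distal start, took 48.2% and 29.0%. GENCODE places the start of Lhx3-202 within the RE1 match, which lies before the RefSeq start. The order of the start sites thus turned between the pools, but the bounds of each transcript overlapped between replicates (0.374 to 1.64 and 0.872 to 2.03 TPM for Lhx3-201, 0.940 to 2.44 and 0.296 to 1.35 TPM for Lhx3-202), so the difference was not resolved at this depth. Retained-intron Lhx3-203 took 24.3% and 12.1%.

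Shares of the other genes were close. Ache-201 took 69.1% and 68.7% and Ache-202 28.9% and 29.7%, with equal coding length and starts of exon 2 that lie 3 bases apart. Lhx4-201 took 79.1% and 78.0%. Chat, Slc18a3 and Slc5a7 have 1 transcript each in the files, and Tbx20 and Mnx1 had all their signal in 1.

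**Figure D4:**
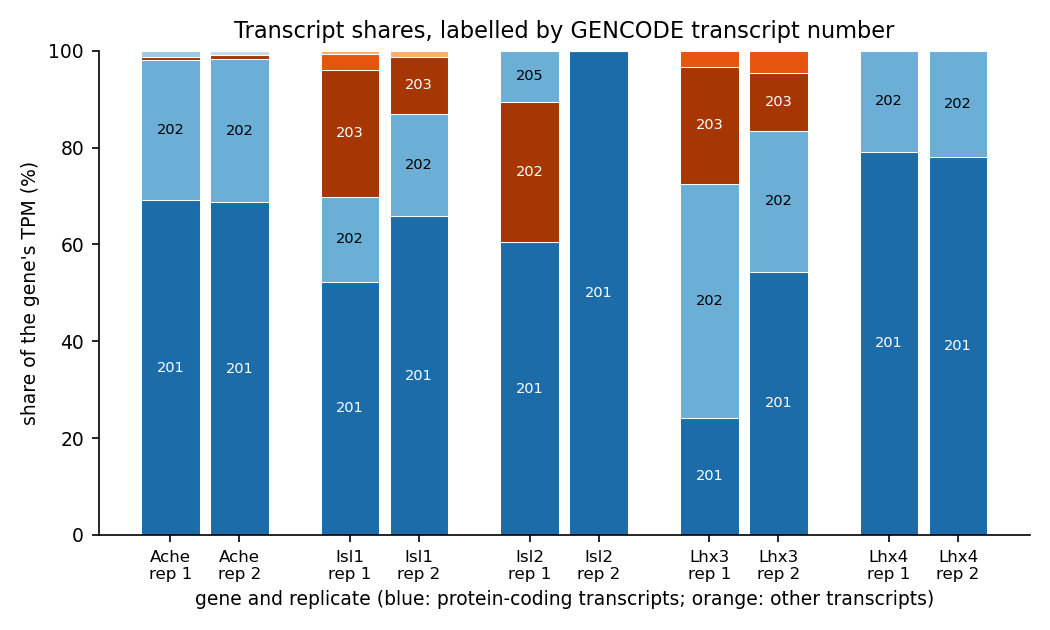
Percent of each gene's TPM taken by each transcript in replicates 1 and 2 of the 5 genes with more than 1 transcript in use, protein-coding in blue and other kinds in orange, with GENCODE transcript numbers in the larger boxes. Ache and Lhx4 are alike in both replicates; the retained-intron share of Isl1 goes from 26.2% to 11.9%, and Lhx3-201 from 24.3% to 54.4%.

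Around the 10 genes, 11 of 13 other genes of acetylcholine turnover were detected. At the same limit 63.5% of all protein-coding genes were detected, the share to set beside this and the list counts below. Colq (0.65 and 0.42 TPM) and Prima1 (0.59 and 0.49 TPM) were below the limit. Acly, which supplies cytosolic acetyl-CoA, was at 212 and 180 TPM, and Pdha1, a subunit of pyruvate dehydrogenase, at 157 and 172 TPM. The choline kinase genes Chkb (72.1 and 69.1 TPM) and Chka (47.1 and 47.2 TPM) were next. Slc10a4, a protein of cholinergic and monoaminergic vesicles, was at 17.0 and 14.8 TPM, close to Slc18a3. Slc44a1, a choline transporter, was the only gene of the 48 with a mean of 1 TPM in the 3 pathway lists to differ over 2-fold between replicates (8.97 and 4.01 TPM, log2 ratio -1.02).

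Of 19 other motor neuron transcription factors and cofactors, 17 were detected, led by Lmo4 (116 and 139 TPM), Ldb1 (77.3 and 44.5 TPM), Foxp1 (53.1 and 39.7 TPM) and Neurod1 (35.9 and 41.2 TPM), which many neurons make. Ldb1 is the adaptor that joins LIM-homeodomain factors such as Isl1 and Lhx3 into complexes. Among the 18 with a mean of 1 TPM, 13 were higher in replicate 1 and 5 in replicate 2 by TMM, with a median log2 ratio of -0.30 that became 0.15 under spike-in scaling.

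Of 20 effector genes, 19 were detected. The neurofilament genes Nefl (670 and 681 TPM) and Nefm (294 and 299 TPM) led, before the adhesion gene Cadm1 (187 and 180 TPM) and the vesicle gene Sv2a (113 and 112 TPM). Prph, which encodes peripherin of peripherally projecting axons, was at 65.8 and 41.7 TPM. Their median log2 ratio was -0.14 by TMM and 0.31 by spike-ins.

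Several of the 10 genes are also known from other cells, whose markers were measured beside them. Of the V2a interneuron markers, 3 of 4 were detected, with sums of 33.4 and 25.5 TPM in replicates 1 and 2. The 13 pituitary markers summed to 6.90 and 7.42 TPM, with 2 detected, Pomc among them (3.2 and 2.78 TPM). Of 10 sensory ganglion markers, which bear on Isl1, 7 were detected, with sums of 115 and 109 TPM and most of it in Prrxl1 (47.6 and 50.3 TPM) and Pou4f1 (27.9 and 29.0 TPM). The 11 heart markers, which bear on Tbx20, summed to 7.32 and 6.95 TPM, with Nkx2-5 and Hand2 at 0 counts; 3 were detected, and Myl3 (1.77 and 0.84 TPM) was over 2-fold apart. Of the red blood cell markers, which bear on Ache, 9 of 10 were matched and 3 detected, with sums of 55.7 and 42.4 TPM, mostly Alas2 (48.6 and 38.9 TPM); Slc4a1 (2.56 and 1.15 TPM) was over 2-fold apart.

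Markers of 3 other tissues set the pools apart. The 14 skeletal muscle markers summed to 345 TPM in replicate 1 and 17.1 TPM in replicate 2. All 10 with a mean of 1 TPM were over 2-fold higher in replicate 1. They were Acta1 (140 and 9.94 TPM), Actc1 (59.9 and 1.05 TPM), Myl1 (48.6 and 1.46 TPM), Tnnc2 (37.6 and 0.57 TPM), Ckm, Myh3, Myh8, Myog, Chrnb1 and Rapsn. Only 4 of the 14 reached 1 TPM in both replicates, so the rest of these 10 passed the filter through replicate 1 alone. Posterior Hox genes, which mark spinal cord, summed to 16.6 and 5.08 TPM. Hoxc8 (8.32 and 2.70 TPM), Hoxb9 (4.39 and 1.21 TPM) and Hoxa9 (2.00 and 0.41 TPM) were over 2-fold higher in replicate 1. Hoxa9 passed the filter through that replicate alone. Hoxc10, Hoxc11 and Hoxd11 were at 0 counts in both. Of the 10 genes followed here, 9 were higher in replicate 1 by TPM. Of the 9 that passed the filter, 8 were by TMM, beside 53.1% of protein-coding genes, and 4 by spike-ins. The shares of all genes by TPM and by spike-ins were not computed.

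The 12 forebrain markers summed to 123 and 107 TPM, of which Ebf1, also made in the hindbrain, held 88.7 and 92.1 TPM, and 5 were detected. By TMM, 5 of the 8 with a mean of 1 TPM were higher in replicate 1. The 3 higher in replicate 2 were Ebf1, Ppp1r1b (6.53 and 7.85 TPM) and Gbx1 (1.90 and 2.48 TPM), none past 2-fold. Dlx1 (7.94 and 0.07 TPM), Dlx5 (3.04 and 0.03 TPM), Lhx6 (2.85 and 0.40 TPM) and Drd2 (4.95 and 1.90 TPM) were over 2-fold higher in replicate 1. Of these, Dlx1, Dlx5 and Lhx6 passed the filter on the mean through replicate 1 alone. Lhx8, a factor of forebrain cholinergic neurons, was at 1.71 and 0.24 TPM, and Nkx2-1 was at 0 counts in replicate 2. The muscle, Hox and forebrain differences go the same way under spike-in scaling in their medians. Their part in the levels of the 10 genes was not tested.

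**Figure D5:**
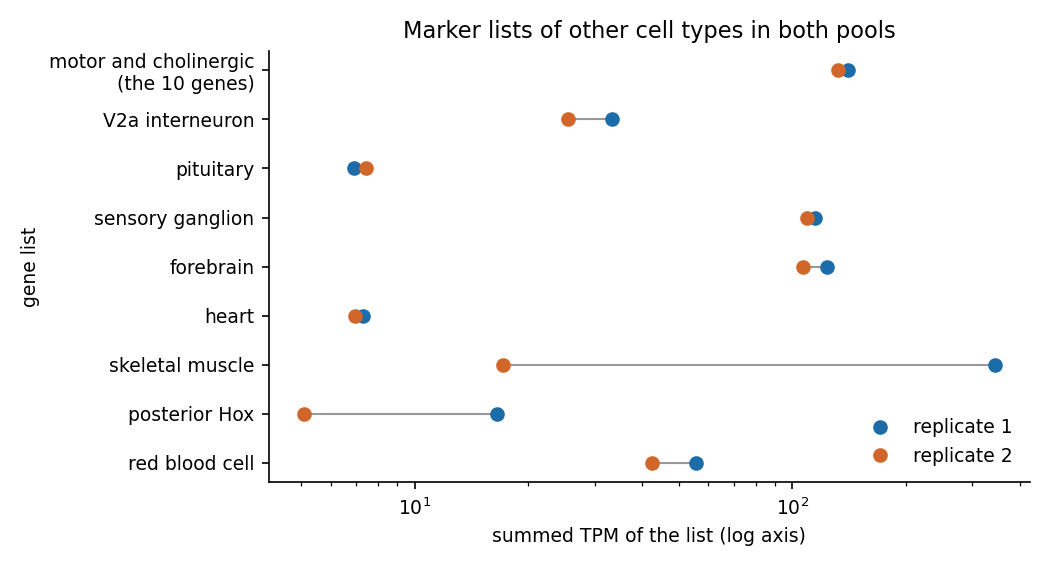
Summed TPM (log axis) of the 10 genes and of 8 marker lists of other cell types in replicate 1 (blue) and replicate 2 (orange). The muscle sum goes from 345 to 17.1 TPM and the posterior Hox sum from 16.6 to 5.08 TPM, while the 10 genes sum to 140.3 and 132 TPM.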

How the data were processed

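Total RNA-seq of 2 pools of embryonic hindbrain was used as deposited. The authors quantified each replicate separately against GENCODE M4 on mm10, as the deposited notes state; no quantification tool is named in the sources used here. Per the file headers, genes and transcripts have expected counts, TPM and FPKM, interval bounds on them (treated as scores), and each transcript's percent of its gene, all from the authors' model. Of 43346 Ensembl identifiers, 42462 matched GENCODE M21 on GRCm38, which gave names, types and positions; 884 did not.

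Expected counts were rounded, and TMM scaling was done by edgeR 4.0.16 under R 4.3.3, spike-ins left out, with a prior count of 0.5. A ratio was called past 2-fold at a mean of 1 TPM or more. Counting intervals are exact (Clopper-Pearson, 95%) on rounded, unscaled counts, and their limits were then scaled by the TMM library sizes. DESeq2 1.42.0 gave alternative size factors; other work used Python 3.11.15, pandas 2.3.3 and SciPy 1.17.1. The ratio step was tested on simulated data. Promoter sequences came from RefSeq on GRCm38.p6.

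The 10 genes and all lists were chosen with earlier results of these data known. Named are the 10 genes, both genes of each pair, and of each list up to 4 detected genes with the highest mean TPM, genes at 0 counts in both libraries and genes over 2-fold apart. Prph, Slc10a4, Colq, Prima1, Lhx8, Nkx2-1 and antisense partners fall outside this rule and were picked once their values had been seen. Values of some list genes, which enter the counts and sums, are not reported here. The alternatives tried changed detection limit, unit, scaling, prior count, filter, coding transcripts and each replicate left out.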

Additional observations from a re-analysis of the deposited data

How the results depend on the processing

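Of 78 alternative values, 70 stayed within the limits set for them, 7 moved and 1 turned its direction. At a limit of 2 TPM, 5 genes were detected in place of 8. With FPKM in place of TPM 6 were detected, Isl2 and Lhx4 falling out, which counted as within the limit set. The count of genes over 2-fold apart went from 0 to 2 by deposited TPM (Isl1 and Isl2), and to 1 (Mnx1) with no filter or with at least 10 counts in a library. The median log2 ratio of -0.40 became 0.052 under spike-in scaling, where all genes shifted by 0.45, so that it stayed below the protein-coding median of 0.43. Isl1 over Isl2 (log2 3.04) was 2.77 by posterior mean TPM and 2.93 over protein-coding transcripts, and Lhx4 over Lhx3 (-1.02) was -0.65 over protein-coding transcripts. With either replicate left out, no count, level or pair moved past its limit, and ratios between replicates have no value. No paired analysis was possible because there is a single group. Depth limits Mnx1 most, with 10 and 1 counts.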
